A study of Mus musculus with 20 samples.

Results

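The genes described here are 4 cytokines of the interleukin-1 (IL-1) family, Il1b, Il18, Il33 and Il1f9, and Casp1, the protease that activates some of them. They were chosen by gene symbol, and every assay with one of these symbols was kept apart from the others. This gave 6 of the 648 assays of a TaqMan OpenArray mouse inflammation panel, which covers 584 gene symbols: a pair of assays for Il1b and 1 for each other gene. The panel was run on 20 samples of total RNA from the ileal mucosa of mice, 5 in each of 4 groups. The CEC group received DNBS (dinitrobenzene sulfonic acid, used to cause colitis) into the rectum and CEC by mouth, and CEC is known only by that label. The Nissle group received intrarectal DNBS and Nissle by mouth, the name of a probiotic Escherichia coli strain. The DNBS group received intrarectal DNBS with phosphate-buffered saline (PBS) by mouth. The healthy group received PBS by both routes. Samples are named by group and number: CEC 1, 3, 5, 7 and 8, Nissle 1 to 5, DNBS 1 to 5, and healthy 1b, 3, 4, 5 and 6. Labels conflict for Nissle 3, 4 and 5: their experimental group reads as healthy controls, but their titles, descriptions and treatments are those of Nissle mice, and they were kept there. Strain, age and sex are not given in the sources used here. The series text speaks of RNA pooled from each mouse and does not say whether a sample is a single mouse. The p-values therefore reflect the spread among the deposited samples alone, and that spread may be technical.

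IL-1 beta, the product of Il1b, is made as an inactive precursor, mainly by monocytes, macrophages and neutrophils. IL-18 is also made as a precursor and is present in the resting intestinal epithelium. Caspase-1, the product of Casp1, is recruited to inflammasomes and cuts both precursors into their active forms. IL-33 is a nuclear protein of epithelial, endothelial and stromal cells that is released on damage and signals through the receptor encoded by Il1rl1. Il1f9 is the older symbol for the gene of IL-36 gamma, an epithelial and myeloid cytokine that signals through the receptor encoded by Il1rl2. Because IL-1 beta and IL-18 are controlled at this cleavage step, transcript levels of these genes do not measure active cytokine.

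Sequences of 250 bases upstream of the start sites of Il1b, Il18 and Il33 are shown because they differ in where the TATA box core lies. They were taken from RefSeq on build GRCm38.p6, where all 5 genes matched by symbol. Il1b lies on the minus strand of chromosome 2 (chr2:129371140-129371389), and the RefSeq gene record ends at base 129371164, inside this window. Il18 lies on the plus strand of chromosome 9 (chr9:50554450-50554699). Il33 has 2 listed starts on the plus strand of chromosome 19, an upstream start (chr19:29924863-29925112) and a downstream start (chr19:29945540-29945789). Capitals mark matches on either strand to TATAAA, the TATA box core, and to TTGNNNAA, a loose form of the C/EBP site.
Il1b: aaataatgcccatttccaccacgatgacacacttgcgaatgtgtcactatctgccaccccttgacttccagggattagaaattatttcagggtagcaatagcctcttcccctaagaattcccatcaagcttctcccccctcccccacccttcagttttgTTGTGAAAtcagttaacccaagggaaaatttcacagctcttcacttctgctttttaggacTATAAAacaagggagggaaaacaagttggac
Il18: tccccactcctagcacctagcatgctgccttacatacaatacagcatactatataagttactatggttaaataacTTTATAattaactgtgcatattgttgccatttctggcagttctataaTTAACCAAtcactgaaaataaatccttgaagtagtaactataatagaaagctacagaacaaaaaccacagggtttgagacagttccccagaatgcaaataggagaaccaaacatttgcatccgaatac
Il33 upstream start: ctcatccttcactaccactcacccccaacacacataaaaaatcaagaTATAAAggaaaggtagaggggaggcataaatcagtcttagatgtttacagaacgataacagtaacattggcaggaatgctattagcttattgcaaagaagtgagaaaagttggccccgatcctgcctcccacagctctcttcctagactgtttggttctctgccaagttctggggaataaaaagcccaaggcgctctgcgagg
Il33 downstream start: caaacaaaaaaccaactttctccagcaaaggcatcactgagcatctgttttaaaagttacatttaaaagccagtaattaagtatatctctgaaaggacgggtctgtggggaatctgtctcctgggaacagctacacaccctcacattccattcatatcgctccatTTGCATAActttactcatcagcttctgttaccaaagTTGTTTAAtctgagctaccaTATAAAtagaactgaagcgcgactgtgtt
TATAAA began 31 bases before the Il1b start and 29 bases before the downstream Il33 start. In the other windows printed it lay farther away, 203 bases before the upstream Il33 start and, on the opposite strand, 175 bases before the Il18 start. Of 32851 mouse promoter windows of this length, 12.4% held TATAAA and 33.3% held TTGNNNAA. The AP-1 site TGANTCA, held by 6.75% of windows, and the NF-kB consensus, held by 7.25%, were not in the windows of Il1b, Il18, Il33, Il1f9 or Casp1. These matches describe the letters of the windows and were not compared with the measured levels. Il1f9 (chr2:24186226-24186475) and Casp1 (chr9:5298267-5298516) held none of the 4 motifs in their windows.

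The assays report a cycle threshold (Ct), the PCR cycle at which fluorescence passes a set level, so a lower Ct means more template. A relative level is used below: the sample's mean Ct over the 544 assays measured everywhere, minus the assay's own Ct. This is a log2 scale provided that product doubles with every cycle, an assumption that was not checked, and it ranks samples for 1 assay but not different genes against each other. Samples had values for 570 to 594 assays, and their mean Ct over those 544 lay between 22.6 and 24.3 cycles. The small-intestinal genes Apoa1, an apolipoprotein, and Ccl25, a gut-homing chemokine, had values in all 20 samples, Apoa1 at 14.1 to 18.4 cycles and Ccl25 at 16.8 to 19.7 cycles. The Apoa4 assay gave no value in any sample. Successive blocks of 54 assays in the deposited order shifted together within a sample, and DNBS 1, DNBS 5 and healthy 5 stood apart, with block shifts spanning 1.88, 2.69 and 2.92 log2 units, against 0.26 to 1.27 in the other 17 samples. Some results for the cytokine genes and Casp1 are therefore also given with each block centred in each sample, or without these 3 samples. Differences of related genes, and levels and differences of cell markers, are given without block centring and with all samples. Whether block shifts had a part in them was not tested.

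**Figure D1:**
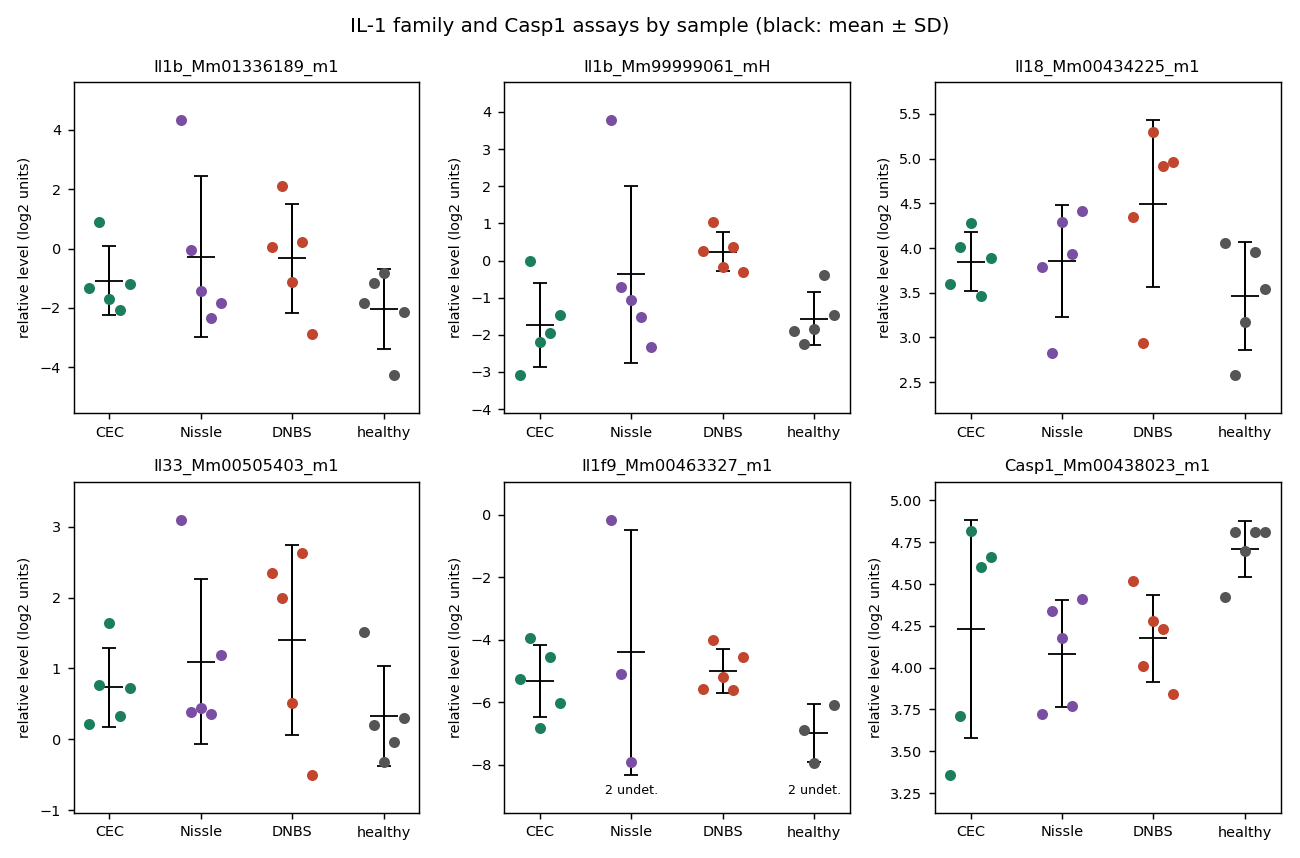
Relative level (log2 units) of the 6 assays in each sample, in the CEC, Nissle, DNBS and healthy groups, with the mean and SD in black. All 5 DNBS points of Il1b_Mm99999061_mH lie above all 5 healthy points, Nissle 1 stands far above its group for both Il1b assays, and Il1f9 was undetermined in 2 Nissle and 2 healthy samples.

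The comparison of DNBS with healthy mice asks what rectal DNBS did to these transcripts in the ileum. In the DNBS group the 4 cytokine genes had higher mean levels than in the healthy group, and Casp1 had a lower mean level. Differences were 1.81 ± 0.80 log2 units (SE) for assay Il1b_Mm99999061_mH, 1.71 ± 1.05 for Il1b_Mm01336189_m1, 1.03 ± 0.39 for Il18, 1.07 ± 0.58 for Il33, 1.99 ± 1.21 for Il1f9 and -0.54 ± 0.26 for Casp1. None of the 6 assays passed the test across all assays (limma, Benjamini-Hochberg adjusted p under 0.05), where 0.176% of the 569 tested assays passed. At an unadjusted p under 0.05 there were 3, namely Il1b_Mm99999061_mH, Il18 and Casp1, against 14.6% of all tested assays. The median difference was 1.39 over the 6 assays and -0.07 over all tested assays. In bulk mucosa, fewer cells of a type and less RNA per cell cannot be told apart.

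Il1b was measured by a pair of assays. Assay Il1b_Mm99999061_mH had relative levels of 0.27, 1.03, -0.18, 0.37 and -0.30 in DNBS 1 to 5, against -1.91, -2.24, -1.84, -0.40 and -1.46 in healthy 1b, 3, 4, 5 and 6. Every DNBS value lay above every healthy value, by a narrow margin between DNBS 5 and healthy 5. Over all tested assays, 2.28% had every DNBS value above every healthy value. The mean was 0.24 ± 0.53 in DNBS samples and -1.57 ± 0.71 in healthy samples (SD, n = 5 each), a ratio of 3.5 with an adjusted p of 0.298 in limma. The groups also stayed apart after block centring, with a lowest DNBS value of -1.06 and a highest healthy value of -1.19. Fitted to the DNBS and healthy samples alone, the same difference had an adjusted p of 0.0336 in limma, where 1.58% of assays passed. With array weights, which give less weight to samples that deviate more, the difference was 1.96, the adjusted p was 0.0115 and 15.8% of assays passed. Over all alternatives its adjusted p ranged from 0.0115 to 0.751.

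Assay Il1b_Mm01336189_m1 gave relative levels of 0.04, 2.11, -1.11, 0.22 and -2.89 in DNBS 1 to 5, against -1.84, -1.16, -0.81, -4.26 and -2.15 in the healthy samples in the same order as above. DNBS 1, 2 and 4 exceeded all healthy samples, while DNBS 5 was among the lowest. The mean was -0.33 ± 1.84 in DNBS samples and -2.04 ± 1.35 in healthy samples (SD, n = 5 each), with an adjusted p of 0.483 in limma. Without DNBS 5 the difference was 2.36, and without healthy 5 it was 1.16. With the 3 samples of wide block shifts left out, it was 1.89 for this assay and 2.27 for Il1b_Mm99999061_mH, and neither passed.

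The Il1b assays lay in different blocks of the deposited order, the fourth for Il1b_Mm01336189_m1 and the sixth for Il1b_Mm99999061_mH. Their levels lay furthest apart in DNBS 5, by 2.59 log2 units, and in healthy 5, by 3.86 (-0.40 for Il1b_Mm99999061_mH and -4.26 for Il1b_Mm01336189_m1). The median shifts of the 2 blocks differed by 1.99 in DNBS 5 and by 2.22 in healthy 5, in the same direction. After block centring, the difference between the Il1b assays was 0.60 in DNBS 5 and 1.65 in healthy 5, and its SD over 20 samples was 0.54, against 1.30 before. Across samples the assays correlated with r = 0.72 (permutation p = 0.00095, Benjamini-Hochberg adjusted 0.00712) and rho = 0.54 (permutation p = 0.0153, adjusted 0.0723), over 15 pairs of the 6 assays. Without DNBS 2 and Nissle 1, r was 0.29, so the relation before centring rests on those samples. After centring, r was 0.94 (permutation p = 1e-05, the smallest these permutations can give; adjusted 0.00015) and rho was 0.79 (permutation p = 0.00014, adjusted 0.0021), and r was 0.81 without the same samples. Centred, the DNBS minus healthy difference was 1.72 ± 0.88 (SE) for Il1b_Mm01336189_m1 and 1.73 ± 0.90 for Il1b_Mm99999061_mH.

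**Figure D2:**
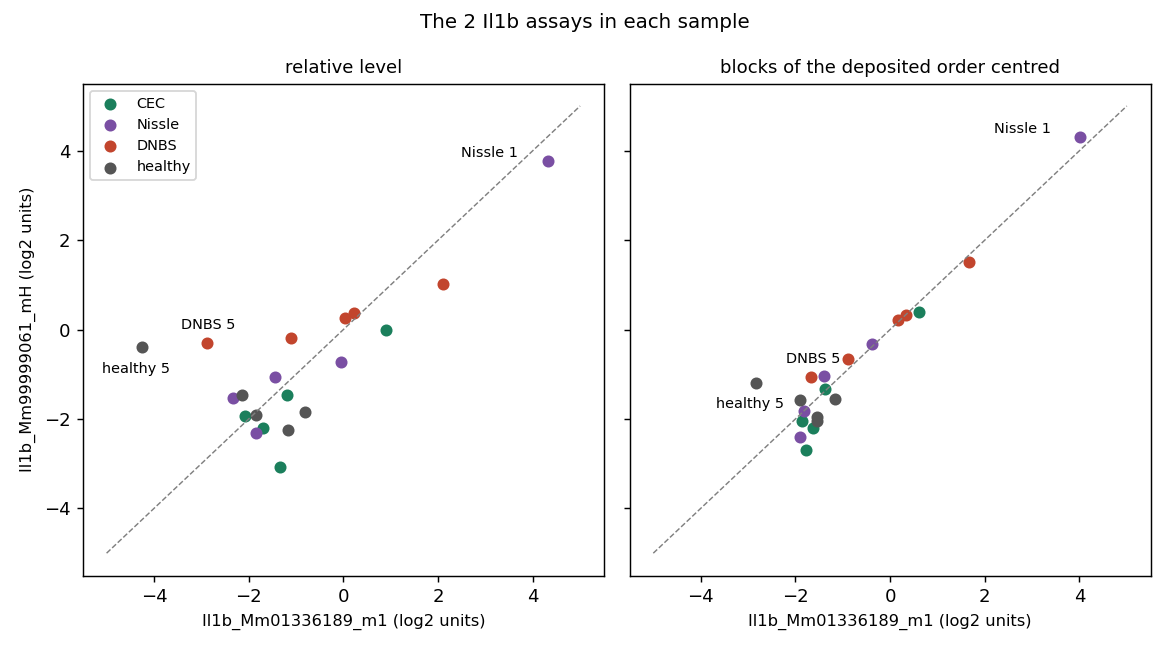
Relative level (log2 units) by the pair of Il1b assays in each of 20 samples, before (left) and after (right) centring blocks of the deposited order; the dashed line marks equal values. DNBS 5 and healthy 5 lie 2.59 and 3.86 above the line on the left, and 0.60 and 1.65 above it on the right.

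Il18, whose product is cut by caspase-1, had relative levels of 4.35, 2.94, 5.30, 4.92 and 4.96 in DNBS 1 to 5, against 4.06, 2.58, 3.17, 3.96 and 3.54 in healthy 1b, 3, 4, 5 and 6. All DNBS samples but DNBS 2 exceeded all healthy samples. The mean was 4.50 ± 0.93 in DNBS samples and 3.46 ± 0.61 in healthy samples (SD, n = 5 each), with an adjusted p of 0.171 in limma. Samples 3, 4 and 5 of both groups share numbers, but the labels do not say what a number marks. Their deviations from the group means correlated with r = 0.14 to 0.49, and -0.03 to 0.25 after block centring. The r of 0.49 was that of DNBS 5 with healthy 5, both of wide block shifts, and it was 0.05 after centring. Between the other pairs of groups, same-numbered samples had r from -0.4 to 0.44. Numbers 1b and 6 occur only in the healthy group. A fit with the number as a block therefore takes its healthy level from healthy 3, 4 and 5. In the 2 groups alone, that fit rests on these 3 shared numbers. With the number as a replicate block, the difference was 1.71 ± 0.30 (SE) with an adjusted p of 0.0210, where 0.351% of assays passed; in the same blocked model of the 2 groups alone it was 1.82 with an adjusted p of 0.121, where 0.35% passed. With array weights it was 1.35, with an adjusted p of 0.0110. Il18 lay in the ninth block, whose shift was 1.22 in DNBS 5 and 0.88 in healthy 5. After centring, the difference was 0.86 ± 0.30 (SE), with an adjusted p of 0.13. The adjusted p ranged from 0.011 to 0.421 over all alternatives.

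Il33, which encodes the epithelial and stromal alarmin, had relative levels of 2.34, 2.0, 0.51, 2.63 and -0.50 in DNBS 1 to 5, against 1.51, 0.20, -0.32, -0.04 and 0.30 in the healthy samples. DNBS 1, 2 and 4 were high, and DNBS 5 was the lowest of all 10. The adjusted p was 0.408 in limma, and without DNBS 5 the difference was 1.54 with an adjusted p of 0.129. Il1f9 had relative levels of -5.58, -4.00, -5.19, -5.61 and -4.53 in DNBS 1 to 5, at 26.8 to 29.3 cycles. In the healthy group it was undetermined in healthy 1b and healthy 5 and had levels of -6.89, -7.93 and -6.09 in healthy 3, 4 and 6. It was thus measured in all 5 DNBS samples and in 3 healthy samples, late in the PCR. Every measured DNBS value lay above every measured healthy value, as in 2.28% of all tested assays. Separation is easier with 3 values in a group than with 5. The Il1f9 fit leaves out the undetermined values, and its adjusted p was 0.483 in limma. With undetermined values set to 40 cycles the difference was 5.66 ± 2.63 (SE), with an adjusted p of 0.308.

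Casp1 had relative levels of 4.52, 4.01, 4.28, 4.23 and 3.84 in DNBS 1 to 5, against 4.42, 4.81, 4.70, 4.81 and 4.81 in healthy 1b, 3, 4, 5 and 6. All DNBS samples but DNBS 1 lay below all healthy samples. The mean was 4.18 ± 0.26 in DNBS samples and 4.71 ± 0.17 in healthy samples (SD, n = 5 each), a ratio of 0.69 with an adjusted p of 0.331 in limma. After block centring the difference was -0.31 ± 0.21 (SE). Every alternative kept Casp1 below healthy in DNBS samples without passing the test, with adjusted p from 0.116 to 0.902.

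The comparison of CEC with DNBS asks whether oral CEC altered these transcripts in mice given DNBS. Both Il1b assays, Il18, Il33 and Il1f9 had lower mean levels in the CEC group than in the DNBS group, and Casp1 was close to equal. The difference furthest from 0 was that of Il1b_Mm99999061_mH, -1.98 ± 0.80 log2 units (SE), a ratio of 0.254. None of the 6 assays passed (limma adjusted p under 0.05), where 0% of 569 assays passed, and 1 had an unadjusted p under 0.05, against 10.7% of all assays. The median over the 6 assays was -0.66, and over all tested assays it was -0.02. These differences use the same DNBS samples as the comparison with healthy mice.

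Il1b_Mm99999061_mH had relative levels of -3.08, -0.02, -2.20, -1.94 and -1.46 in CEC 1, 3, 5, 7 and 8, against the DNBS values given above, which ranged from -0.30 to 1.03. All CEC samples but CEC 3 lay below all DNBS samples. None of the 6 assays had groups that stayed fully apart, whereas 1.23% of all assays had every CEC value below, and 1.93% above, every DNBS value. The adjusted p of Il1b_Mm99999061_mH was 0.416 in limma, 0.0445 with array weights (difference -1.92), where 3.69% of assays passed, and 0.0445 to 0.696 over all alternatives. Il1b_Mm01336189_m1 had levels of -1.34, 0.91, -1.70, -2.07 and -1.20 in the same CEC samples, all within the range of the DNBS group, -2.89 to 2.11. Its difference was -0.75 ± 1.05 (SE), and it was -0.14 without DNBS 2 and -1.39 without DNBS 5. After block centring the 2 assays gave -1.13 ± 0.88 and -1.64 ± 0.90, and neither passed.

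Of the other genes, Il18 had 3.60, 4.01, 4.28, 3.46 and 3.89 in CEC 1, 3, 5, 7 and 8, against 2.94 to 5.30 in DNBS samples, a difference of -0.65 with a 95% interval of -1.46 to 0.17. Il33 had 0.22, 0.76, 1.64, 0.33 and 0.72 in the CEC samples, against -0.50 to 2.63 in DNBS samples, a difference of -0.66 with an interval of -1.86 to 0.54. For both genes every CEC value lay within the DNBS range. Single samples moved both differences: Il18 had -1.04 without DNBS 2, and Il33 had -0.51 without DNBS 2 and -1.14 without DNBS 5. After block centring Il18 had -0.28. Il1f9 had -5.24, -3.94, -6.81, -4.55 and -6.02 in the CEC samples, against -5.61 to -4.00 in DNBS samples, a difference of -0.33 with an interval of -2.55 to 1.89. Casp1 had 3.36, 3.71, 4.82, 4.60 and 4.66 in the CEC samples, against 3.84 to 4.52 in DNBS samples, a difference of 0.05 with an interval of -0.48 to 0.59. CEC 1 and CEC 3 lay below all DNBS samples for Casp1 and the other 3 above, so the CEC group was the most spread. The adjusted p of these 4 differences in limma was 0.54 for Il18, 0.658 for Il33, 0.925 for Il1f9 and 0.979 for Casp1.

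Against healthy mice, the CEC group had higher mean levels for Il1b_Mm01336189_m1 (0.96 ± 1.05, SE, and 0.41 without healthy 5), Il18 (0.39 ± 0.39), Il33 (0.40 ± 0.58) and Il1f9 (1.65 ± 1.21). The mean was lower for Il1b_Mm99999061_mH (-0.17 ± 0.80) and Casp1 (-0.48 ± 0.26). None passed in limma, where 0.176% of assays did, and none had an unadjusted p under 0.05, against 3.87% of all assays. After block centring the Il1b_Mm99999061_mH difference was 0.09, so its sign is not settled. Il1f9 was measured in all 5 CEC samples, and 4 of them lay above the 3 measured healthy values.

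**Figure D3:**
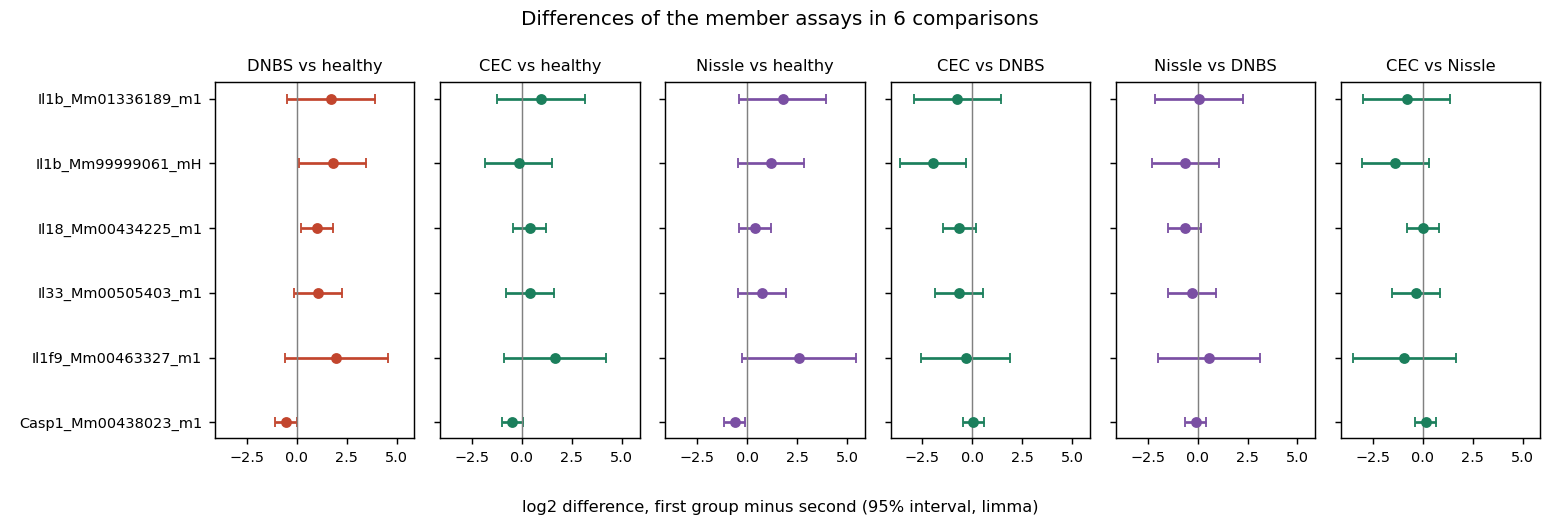
Log2 difference of each of the 6 assays in each of 6 comparisons, named group first, with its 95% interval from limma. The 5 cytokine assays lie right of 0 for DNBS against healthy and left of 0 for CEC against DNBS, and no assay passed the test across all assays.

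The Nissle comparisons ask what oral Nissle did in mice given DNBS. The Nissle group was set apart by Nissle 1, which had the highest level of all 20 samples for both Il1b assays, Il33 and Il1f9. Il1b_Mm01336189_m1 had relative levels of 4.32, -0.04, -1.44, -2.33 and -1.84 in Nissle 1 to 5, and Il1b_Mm99999061_mH had 3.77, -0.72, -1.07, -1.53 and -2.32. Il33 had 3.09, 0.39, 0.44, 0.36 and 1.19 in Nissle 1 to 5. Il1f9 had -0.17, -5.08 and -7.92 in Nissle 1, 2 and 3 and was undetermined in Nissle 4 and 5. Nissle 1 did not stand out for Il18, which had 3.79, 2.83, 4.29, 3.93 and 4.42, or for Casp1, which had 3.72, 4.34, 4.18, 3.77 and 4.41 in Nissle 1 to 5.

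Against the DNBS group, the Nissle differences were 0.06 ± 1.05 (SE) for Il1b_Mm01336189_m1, -0.61 ± 0.80 for Il1b_Mm99999061_mH, -0.65 ± 0.39 for Il18, -0.30 ± 0.58 for Il33, 0.59 ± 1.21 for Il1f9 (3 Nissle samples measured) and -0.09 ± 0.26 for Casp1. None passed in limma, where 0% of assays did, and none had an unadjusted p under 0.05, against 4.22% of all assays. Without Nissle 1 the differences were -1.09 for Il1b_Mm01336189_m1, -1.65 for Il1b_Mm99999061_mH and -0.80 for Il33, and Il1f9 had too few values left to be tested. Without Nissle 3, 4 and 5, whose labels conflict, they were 2.47, 1.28 and 0.34 for the same 3 assays. The direction of the Nissle group against DNBS thus depended on which of its samples were kept, and none of these values passed.

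Against healthy mice, Casp1 had a lower mean in the Nissle group, -0.63 ± 0.26 (SE), a ratio of 0.648. All 5 Nissle values, 3.72 to 4.41, lay below all 5 healthy values, 4.42 to 4.81, with Nissle 5 and healthy 1b only just apart. Over all tested assays 2.46% had every Nissle value below every healthy value, and the adjusted p of Casp1 was 0.488 in limma. None of the 6 assays passed, against 0.176% of all assays, and Casp1 was the 1 assay with an unadjusted p under 0.05, against 9.49% of all assays. After block centring the difference was -0.36 ± 0.21, and the groups met at 4.39, the value of both Nissle 3 and healthy 1b to 2 decimals. The other differences were 1.78 ± 1.05 for Il1b_Mm01336189_m1, 1.20 ± 0.80 for Il1b_Mm99999061_mH, 0.76 ± 0.58 for Il33, 2.58 ± 1.35 for Il1f9 (3 samples of each group measured) and 0.39 ± 0.39 for Il18. Without Nissle 1 they were 0.63, 0.16 and 0.26 for the Il1b assays and Il33 in that order. Without Nissle 3, 4 and 5, which leaves 2 Nissle samples, the differences were 4.18 for Il1b_Mm01336189_m1, 3.09 for Il1b_Mm99999061_mH and 4.34 for Il1f9, each with an adjusted p of 0.0842 in limma, and 1.41 for Il33 and -0.16 for Il18. The size of the cytokine differences from healthy mice thus depended on which Nissle samples were kept.

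Between the oral treatments, CEC minus Nissle, the differences ranged from -1.37 ± 0.80 (SE) for Il1b_Mm99999061_mH to 0.14 ± 0.26 for Casp1. None passed in limma, where 0% of assays did, and none had an unadjusted p under 0.05, against 1.41% of all assays. Il18 had the same mean, 3.85, in both groups, and the 95% interval of its difference reached from -0.81 to 0.81. For Il1b_Mm01336189_m1 the difference was -0.81 with all samples, 0.34 without Nissle 1 and -3.22 without Nissle 3, 4 and 5. For Il1b_Mm99999061_mH it was -0.33 without Nissle 1 and -3.26 without Nissle 3, 4 and 5, and for Il1f9 it was -0.92 with all measured values and -2.69 without Nissle 3, 4 and 5. None of these passed.

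Over the 4 groups, mean levels of Il1b_Mm99999061_mH were -1.74 ± 1.13 in CEC, -0.37 ± 2.39 in Nissle, 0.24 ± 0.53 in DNBS and -1.57 ± 0.71 in healthy samples (SD, n = 5 each), highest in DNBS and lowest in CEC. Il18 and Il33 also had their highest mean in DNBS samples and their lowest in healthy samples, and Il1b_Mm01336189_m1 and Il1f9 had their highest in Nissle samples and their lowest in healthy samples. Casp1 had the opposite place, with its lowest mean in Nissle samples and its highest in healthy samples. The place of the Nissle group rested on few samples. Without Nissle 1, Il1b_Mm01336189_m1 was highest in DNBS samples, and without Nissle 3, 4 and 5, Il1b_Mm99999061_mH and Il33 were highest in Nissle samples. The Nissle mean of Il1f9 covers 3 of 5 samples, and with undetermined values set to 40 cycles the Nissle minus DNBS difference was -4.25. No difference between neighbouring groups in these orders passed the test across all assays.

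The rest of the pathway was read from lists of related genes. Of other ligands and antagonists, Il1a, Il1rn (the receptor antagonist) and Il18bp (which binds IL-18) were tested, and 0 of 3 passed in any comparison. DNBS minus healthy differences were 0.79 ± 0.79 (SE) for Il1a and 0.84 ± 0.63 for Il1rn. Nissle minus DNBS was 0.43 ± 0.79 for Il1a and -0.12 ± 0.29 for Il18bp, and CEC minus DNBS was -0.59 ± 0.63 for Il1rn and -0.21 ± 0.29 for Il18bp. Il1f5, Il1f6 and Il1f10 had values in 0, 3 and 10 samples and were not tested. Of the receptors, 5 assays were tested and 0 passed, with 2 higher and 3 lower in DNBS than in healthy samples and a median of -0.35. Il1rl1, which encodes the IL-33 receptor, differed by -0.88 ± 0.66 and Il1rap, the shared accessory chain, by -0.35 ± 0.29. In CEC against DNBS samples, Il18rap, a chain of the IL-18 receptor, differed by -0.81 ± 0.38 and Il1rap by 0.57 ± 0.29, and in Nissle against DNBS samples Il1rap differed by 0.44 ± 0.29 and Il1r1, the IL-1 receptor, by -0.32 ± 0.27.

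Signalling genes below the receptors came next. Of 8 adaptors and kinases, 0 passed in any comparison, with a median DNBS minus healthy difference of -0.20. Rela, an NF-kB subunit, differed by -0.31 ± 0.24 (SE) and Tollip, an inhibitor of IL-1 receptor signalling, by -0.48 ± 0.46. Tollip differed by 0.88 ± 0.46 and Nfkb1 by 0.65 ± 0.45 in CEC against DNBS samples, where Irak3, an inhibitory member of the IRAK family, differed by 1.01 ± 0.71, and Irak1 by -0.58 ± 0.33 and Tollip by 0.75 ± 0.46 in Nissle against DNBS samples. A list of 8 assays held inflammasome sensors and partners of caspase-1, and also the sensors Nod1 and Nod2, which are not inflammasome sensors. Of these 8, 0 passed, and the median DNBS minus healthy difference was -0.11. Nod1, a bacterial sensor, differed by 0.38 ± 0.25 and Pycard, the adaptor that recruits caspase-1, by -0.30 ± 0.33. Nod1 differed by -0.59 ± 0.25, Pycard by 0.58 ± 0.33 and Nlrp3, an inflammasome sensor, by -1.14 ± 0.83 in CEC against DNBS samples, and Casp8 by -0.44 ± 0.31 and Nod1 by -0.35 ± 0.25 in Nissle against DNBS samples. Irak3 and Nlrp3 were named after their values were seen.

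Of genes known to respond to IL-1, 16 assays were on the panel. A pair of Csf3 assays, Sele and a further Il6 assay had values in 11 to 15 samples and were not tested. Of 12 tested assays, 11 had a higher mean and 1 a lower mean in DNBS than in healthy samples, with a median of 1.37 against -0.07 over all assays, of which 44.6% had a higher mean. None of the 12 passed, and 5 had an unadjusted p under 0.05, against 14.6% of all assays. Among the 12, Il6, Cxcl1 and Csf2 were each counted by a pair of assays, and both Cxcl1 assays were among the 5. Cxcl2, a neutrophil-attracting chemokine, differed by 4.78 ± 1.27 (SE) and Il6 by 4.62 ± 1.22 (assay Il6_Mm00446190_m1), each with an adjusted p of 0.122 in limma. The assay with the lower mean, named after its value was seen, was Il6_Mm01210733_m1 at -4.06 ± 3.75, so the tested Il6 assays went opposite ways. In CEC against DNBS samples 0 of the 12 had a higher mean, against 48% of all assays, with a median of -0.83. Here Il6_Mm00446190_m1 differed by -2.85 ± 1.22 and Cxcl1, another neutrophil attractant, by -1.54 ± 0.89 (assay Cxcl1_Mm04207460_m1). In Nissle against DNBS samples 1 of the 12 had a higher mean, against 45% of all assays, with a median of -0.60. Here Il6_Mm00446190_m1 differed by -1.66 ± 1.22 and Ptgs2, which encodes an inducible prostaglandin synthase, by -0.62 ± 0.59. These comparisons share their DNBS samples.

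**Figure D4:**
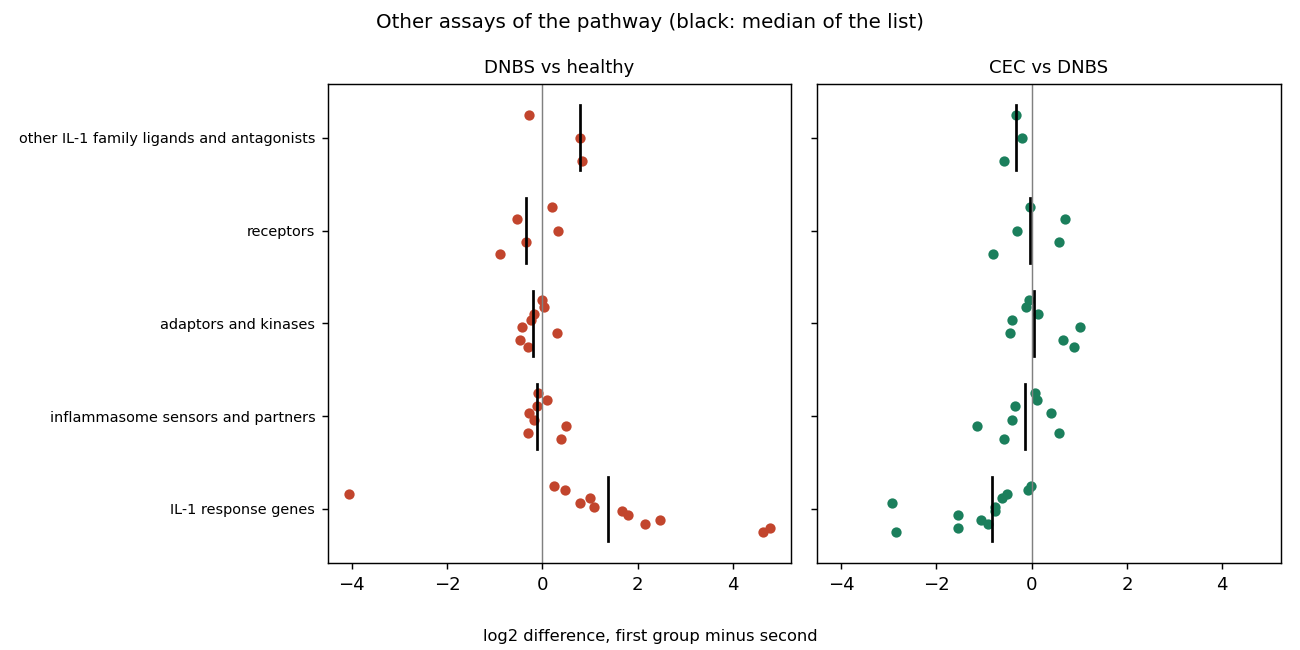
Log2 differences of tested assays in 5 lists of related genes, DNBS minus healthy (left) and CEC minus DNBS (right), with each list's median in black. Response genes have medians of 1.37 and -0.83, and the medians of the other lists lie nearer 0; no point passed the test across all assays.

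Markers of other cell types, and of the epithelium, were read in the same samples. The mean level of 8 neutrophil marker assays ranged from -2.82 to 0.45 in CEC, -2.43 to 2.66 in Nissle, -2.25 to 0.79 in DNBS and -3.29 to -1.71 in healthy samples. In the Nissle group the highest value, 2.66, was that of Nissle 1, and the next was -1.32. CEC 3, the CEC sample with the highest Il1b by both assays, had 0.45, and DNBS 5, with low Il33 and low Il1b_Mm01336189_m1, had -2.25, against -0.42 to 0.79 in the other DNBS samples. By the other Il1b assay, Il1b_Mm99999061_mH, DNBS 5 had -0.30, the lowest of the DNBS group but above all healthy samples. CEC 1 went another way, with a neutrophil marker level of 0.02 and the lowest Il1b_Mm99999061_mH of all samples, -3.08. DNBS 5 was among the samples with wide block shifts, and marker levels were not block centred. Its Il1b_Mm01336189_m1 level was -2.89 before block centring and -1.66 after, and its Il33 level was -0.50 before and -0.40 after. Whether block shifts had a part in its low levels was not tested. The mean level of 8 macrophage, monocyte and dendritic cell marker assays ranged from -1.84 to 0.42 in CEC, -1.37 to 0.61 in Nissle, -1.67 to -0.11 in DNBS and -2.58 to -1.46 in healthy samples. In DNBS against healthy samples 6 of these 8 had a higher mean, against 44.6% of all assays, with a median of 0.46. Their differences ran from -0.33 for Cx3cr1 to 6.44 for Chi3l3. In CEC against DNBS samples 3 had a higher mean and 5 a lower mean, with a median of -0.31. The 3 higher ones were Cx3cr1 (1.28 ± 0.40, SE), Cd86 (1.25 ± 0.55) and Itgam (1.01 ± 0.43). Each of these 3, and none of the 5 lower ones, had an unadjusted p under 0.05 in limma, against 10.7% of all assays. All markers of both lists on the panel were tested assays with values in each group. All 8 neutrophil assays had a higher mean in DNBS than in healthy samples, against 44.6% of all assays, with a median of 2.14. Their differences ran from 0.09 for Fpr1 to 4.42 for S100a8_Mm00496696_g1. In CEC against DNBS samples 0 of the 8 had a higher mean, against 48% of all assays, with a median of -1.22. No assay of either list passed in any comparison (limma adjusted p under 0.05).

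The epithelial markers tested were a pair of Apoa1 assays and Ccl25, and their mean level ranged from 6.93 to 7.95 in CEC, 5.28 to 7.69 in Nissle, 5.11 to 7.02 in DNBS and 5.69 to 7.69 in healthy samples. All 3 had a lower mean in DNBS than in healthy samples, with a median of -0.73. Of these, 1 had an unadjusted p under 0.05, against 14.6% of all assays, namely Ccl25 at -1.49 ± 0.49 (SE). All 3 had a higher mean in CEC than in DNBS samples, with a median of 1.16. Each had an unadjusted p under 0.05, against 10.7% of all assays, with Apoa1 counted by its pair of assays. In Nissle against DNBS samples all 3 had a higher mean, with a median of 0.62. None passed (limma adjusted p under 0.05). The lowest epithelial marker levels were those of DNBS 2, 5.11, and Nissle 1, 5.28, both high for Il1b and Il33. The next lowest were those of healthy 5, 5.69, and DNBS 5, 6.12, both samples of wide block shifts. These had -4.26 and -2.89 for Il1b_Mm01336189_m1, -0.40 and -0.30 for Il1b_Mm99999061_mH, and -0.04 and -0.50 for Il33. Of 4 eosinophil and mast cell assays none passed, and their median was -0.48 in DNBS against healthy samples and 0.10 in CEC against DNBS samples. Ccr3, an eosinophil chemokine receptor, differed between DNBS and healthy samples by -1.70 ± 0.49 for assay Ccr3_Mm00515543_s1 and by -0.26 ± 0.88 for assay Ccr3_Mm01216172_m1, and this gene too was named after its values were seen. Of 4 T cell assays and 1 B cell assay none passed, with medians of -0.25 and -0.62 in DNBS against healthy samples. The part of any of these cells in the cytokine levels was not tested, and no endothelial or stromal marker of the list was on the panel.

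**Figure D5:**
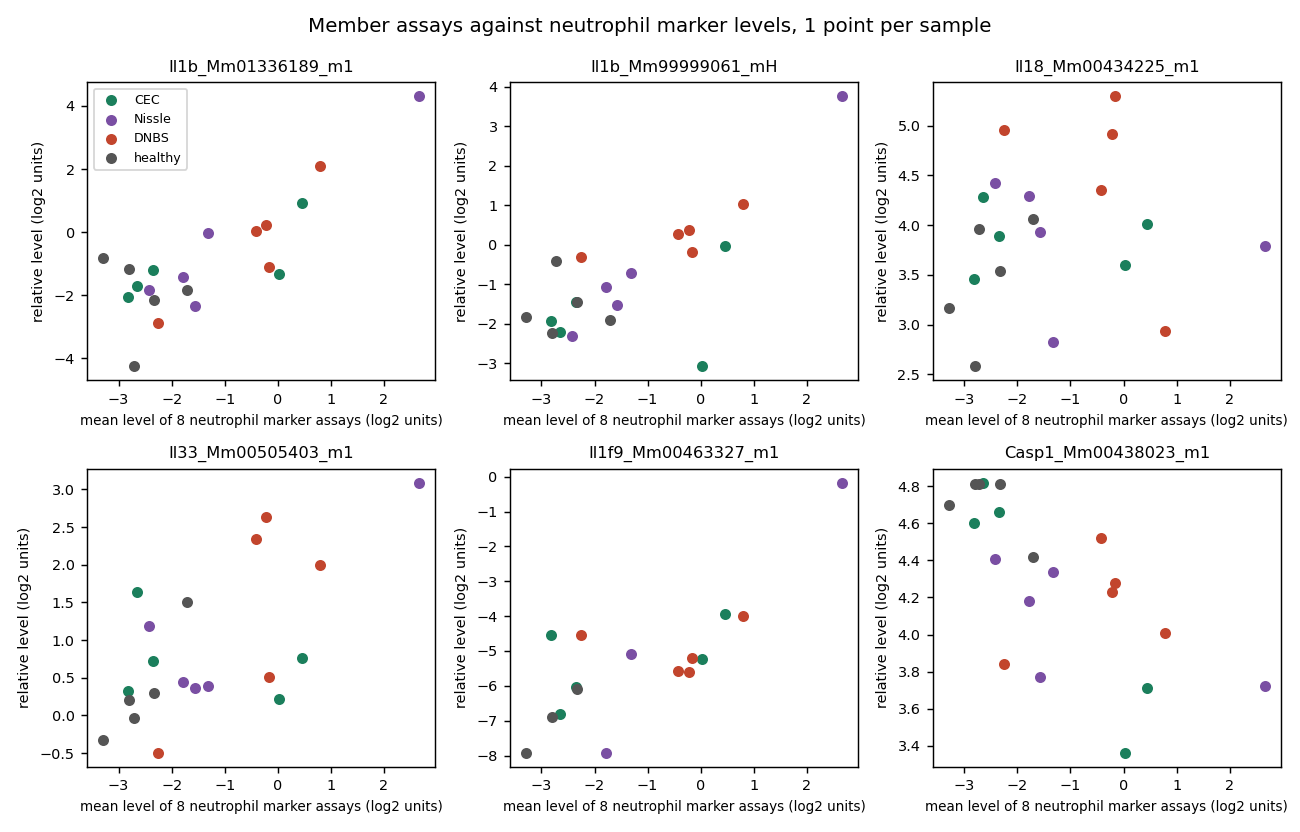
Relative level of each of the 6 assays against the mean level of 8 neutrophil marker assays, 1 point per sample, both in log2 units. Nissle 1 (marker level 2.66) is at the upper right for both Il1b assays, Il33 and Il1f9, while its Il18 and Casp1 levels lie within the range of the other samples.

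Assays most like each gene were named by their correlation over the samples, as a description, since all levels in a sample share 1 normalization. For Il1b_Mm01336189_m1 these were Il1rn (r = 0.96 over 20 samples, 0.93 without Nissle 1), Ptafr, the platelet-activating factor receptor (0.95), and Il8rb, a neutrophil chemokine receptor (0.91). For Il1b_Mm99999061_mH they were the chemokines Ccl11 (0.87), Cxcl3 (0.86) and Ccl7 (0.84), which without Nissle 1 had 0.74, 0.73 and 0.71. Il33 was most like Hif1a, the hypoxia-inducible factor (0.81), Il1rn (0.78) and Il8rb (0.76), which without Nissle 1 had 0.77, 0.69 and 0.67. Il1f9, over the 16 samples with a value, was most like Il6_Mm00446190_m1 (0.85), Cxcl3 (0.83) and Ccl7 (0.83). Without Nissle 1 these had 0.79, 0.66 and 0.67. The neighbours of Il18 and Casp1 were other genes: Tnfrsf1a, a TNF receptor (0.83), Fam3b (0.75) and Adora1, an adenosine receptor (0.72), for Il18, and Il13ra1, an IL-13 receptor chain (0.85), Ly75, an endocytic receptor of dendritic cells (0.83), and Tnfsf10, the ligand TRAIL (0.82), for Casp1. After block centring the values of Fam3b and Adora1 with Il18 were 0.60 and 0.46. Ptafr lay in the same block as Il1b_Mm01336189_m1, and Il13ra1 in that of Casp1. Their values after centring were 0.91 and 0.77.

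Between the genes themselves, Il33 and Il1b_Mm01336189_m1 correlated with r = 0.70 (permutation p = 0.00051, adjusted 0.00712) and rho = 0.59 (permutation p = 0.00716, adjusted 0.0537), and r was 0.47 without DNBS 2 and Nissle 1. Casp1 and Il1f9 ran opposite over 16 samples, with r = -0.59 (permutation p = 0.0136, adjusted 0.034), rho = -0.67 (permutation p = 0.00525, adjusted 0.0537) and r = -0.50 without Nissle 1 and healthy 4. The permutations shuffled samples across groups, so differences between group means enter these p-values. With group means removed, r was -0.45 for Casp1 with Il1f9 and 0.65 for Il33 with Il1b_Mm01336189_m1. After block centring, r was 0.79 for Il33 with Il1b_Mm01336189_m1 and -0.34 (adjusted 0.238) for Casp1 with Il1f9. These are 2 of the 15 pairs computed, and others correlated as well. Before centring, Il1f9 had r = 0.76 with Il1b_Mm99999061_mH (permutation p adjusted 0.0116) and 0.70 with Il1b_Mm01336189_m1 (0.0201). Il33 had 0.60 with Il1b_Mm99999061_mH (0.02). Without the 2 samples furthest from the median of the Il1b assay, these had 0.61, 0.15 and 0.27. After centring, Il18 with Il33 had rho = 0.69 (permutation p adjusted 0.00742).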

How the data were processed

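Raw Ct values, not normalized, were deposited by the authors, per the file headers, and each is the cycle at which an assay passed its threshold. An undetermined assay was given as 40, in 1273 of 12960 cells, and 1 cell was empty. Per the labels' protocols, RNA was extracted with the mirVana kit and cycled on OpenArray cards. The sources used here do not say whether a value averages several wells. No genome was used for the values.

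Relative levels were computed from these Ct values with undetermined values left missing, and compared with limma 3.58.1 in R 4.3.3 over all 20 samples, with a trend in eBayes, tests of both directions, and adjustment by Benjamini and Hochberg at 0.05 over the 569 assays with at least 3 values in each group. Correlations used 100000 permutations of all samples, without regard to group (scipy 1.17.1). The limma step was tested on simulated data.

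The named genes are all 6 assays, the 3 assays most like each, and the 2 assays of smallest p per related list in 3 comparisons. Members and lists were chosen with earlier results of these data known. The labels do not say what a sample number marks, so the main fit has no replicate block. In DNBS and healthy samples, deviations of same-numbered samples correlated with r = 0.14 to 0.49 for 3 shared numbers, and -0.03 to 0.25 after block centring. The alternatives were other normalizations, handling of undetermined values, filters, sample weights, a replicate block, groups alone, and leaving out samples; block centring, the blocked fit of 2 groups and leaving out the 3 samples of wide shifts were chosen after seeing the data.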

Additional observations from a re-analysis of the deposited data

Results flagged for a closer look

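In a group of 5, a sample was marked when its gap to the nearest other was more than 0.710 of the group's range. Among the 22 groups examined, 2 held such a sample, and chance marks about 1 in 20. Il1b_Mm99999061_mH in Nissle 1 had a relative level of 3.77, and the nearest other Nissle sample had -0.72, a gap of 0.74 of the range. Casp1_Mm00438023_m1 in healthy 1b had a relative level of 4.42, and the nearest other healthy sample had 4.70, a gap of 0.72 of the range.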

How the results depend on the processing

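The 36 differences (6 assays in 6 comparisons) were recomputed under other settings and with each sample left out; the blocked model of 2 groups alone was fitted for DNBS vs healthy only. Over all settings but leave-one-out, 329 of 360 values kept their direction and side of the threshold, 5 passed where they had not, and 26 changed sign, all of them not called in any setting. The 6 counts of assays called were 0. For DNBS vs healthy, 1 was called when only the 2 groups compared were fitted (1.58% of all assays passed), 2 with array weights (15.8%) and 1 with the replicate block (Il18, 1.71; 0.351%). For CEC vs DNBS, 1 was called with array weights (3.69%). The block changed no other call. The cause of these changes was not tested. Without normalization the median of all assays moved to 0.16 in DNBS vs healthy, and relative to reference assays to -0.20, where it was -0.07.

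The values that changed sign were as follows, with the assays of Il1b called m1 and mH. Relative to reference assays, Casp1 had 0.10 in Nissle vs DNBS and -0.0112 in CEC vs Nissle. Without normalization, Casp1 had -0.14 in CEC vs DNBS, 0.12 in Nissle vs DNBS and -0.25 in CEC vs Nissle. With undetermined values set to 40, Il1f9 had -4.25 in Nissle vs DNBS and 3.92 in CEC vs Nissle. With array weights, Nissle vs DNBS was -0.84 for m1 and -0.94 for Il1f9, CEC vs healthy was 0.0424 for mH, and CEC vs Nissle was 0.0219 for Il18, 0.19 for Il33 and 0.39 for Il1f9. With the replicate block, Casp1 had -0.23 in CEC vs DNBS and -0.14 in CEC vs Nissle. Without the Nissle samples of conflicting label, Nissle vs DNBS was 1.28 for mH and 0.34 for Il33, and Il18 had -0.16 in Nissle vs healthy and 0.54 in CEC vs Nissle. With blocks centred, m1 had -0.22 in Nissle vs DNBS, mH had 0.0947 in CEC vs healthy, Il18 had 0.0210 in CEC vs Nissle, and Casp1 had -0.14 in CEC vs DNBS and -0.10 in CEC vs Nissle. Without the 3 samples of widest block shifts, m1 had -0.67 in Nissle vs DNBS and mH 0.12 in CEC vs healthy.

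The m1 difference in CEC vs DNBS ranged from -1.39 to -0.14 with each sample left out. Over all assays and comparisons, 20 of these 684 values changed sign and none was called. Ranges that crossed 0 were -1.09 to 0.67 (m1, Nissle vs DNBS), -1.33 to 0.34 (m1, CEC vs Nissle), -0.60 to 0.17 (mH, CEC vs healthy), -0.26 to 0.14 (Il18, CEC vs Nissle), -0.80 to 0.0073 (Il33, Nissle vs DNBS), -0.59 to 0.14 (Il33, CEC vs Nissle), -0.67 to 0.0430 (Il1f9, CEC vs DNBS), -0.0943 to 0.27 (Casp1, CEC vs DNBS), -0.17 to 0.0006 (Casp1, Nissle vs DNBS) and -0.0033 to 0.36 (Casp1, CEC vs Nissle). Il1f9 had no value in the fit to assays measured in every sample, or without a healthy or Nissle sample that measured it. The number of samples limits precision: the SE of these differences was 0.26 to 1.35.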
